A study of Rattus norvegicus with 4 samples.

Results

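The genes described here are 41 regulators of chromatin: Polycomb proteins, DNA methyltransferases, histone deacetylases and acetyltransferases, histone methylation enzymes, nucleosome remodellers, high-mobility group proteins and the factors Ctcf and Trim28. They were chosen by name, and each was read through its brightest probe set among those that the platform annotation pairs with exactly 1 gene symbol. Of the 41 genes, 36 had such a probe set, out of 14218 genes on the array, and all 36 were bright enough to be tested, as were 11492 genes in all. Bmi1, Cbx3, Sirt1, Hmgb2 and Rbbp4 had none and carry no value here.

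The study grew neurospheres, floating cell clusters, from retinal cells of embryonic day 18 Sprague Dawley rats. One condition combined medium conditioned by endothelial cells with epidermal growth factor (EGF), and the other had EGF alone, so both contained EGF. Total RNA of 2 arrays per condition was hybridised to an Affymetrix rat expression array, whose probe sets lie near the 3' ends of transcripts. Each array holds pooled embryos, and the replicates of a condition came from different pools. Each pool gave both conditions, but the labels do not say which arrays share one. The array reads mixed cells, so fewer cells of a type and less RNA per cell cannot be told apart.

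Polycomb proteins form 2 main repressive complexes. PRC2 methylates histones through Ezh2, with Suz12 and Eed as its core partners, and PRC1 ubiquitinates histones through Rnf2 and reads the methyl mark through proteins such as Cbx2. DNA methyltransferases place or copy methyl groups on cytosine, deacetylases and acetyltransferases set histone acetylation, and SWI/SNF and ISWI remodellers use ATP to move nucleosomes. In the developing retina these systems are known to restrain neuronal and glial genes in progenitors and to be rewired as neurons mature.

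The RNA of this machinery differed little between the conditions after quantile normalization. On quantile normalized arrays, the differences of the 36 genes (conditioned medium with EGF minus EGF alone) ran from -0.43 log2 for the remodelling ATPase Smarca2 to 0.30 log2 for the heterochromatin protein Cbx5, with a median of -0.10 log2. None of the 36 differed by more than 0.5 log2, against 19.2% of all 11492 genes tested. For all 36 the 95% interval of the difference lay within 1 log2 of 0, between -0.69 and 0.57 log2, which was so for 87.3% of all genes. As deposited 3 of the 36 exceeded 0.5 log2, against 40.8% of all genes, and the intervals of 33 lay within 1 log2 of 0. With median-centred arrays 7 exceeded 0.5 log2, against 23.5% of all genes, and the intervals of all 36 lay within 1 log2. The members were bright, with a median level of 10.40 log2 as deposited against 8.59 log2 over all genes tested, and their median SD between replicates was 0.060 log2 against 0.097 log2.

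**Figure D1:**
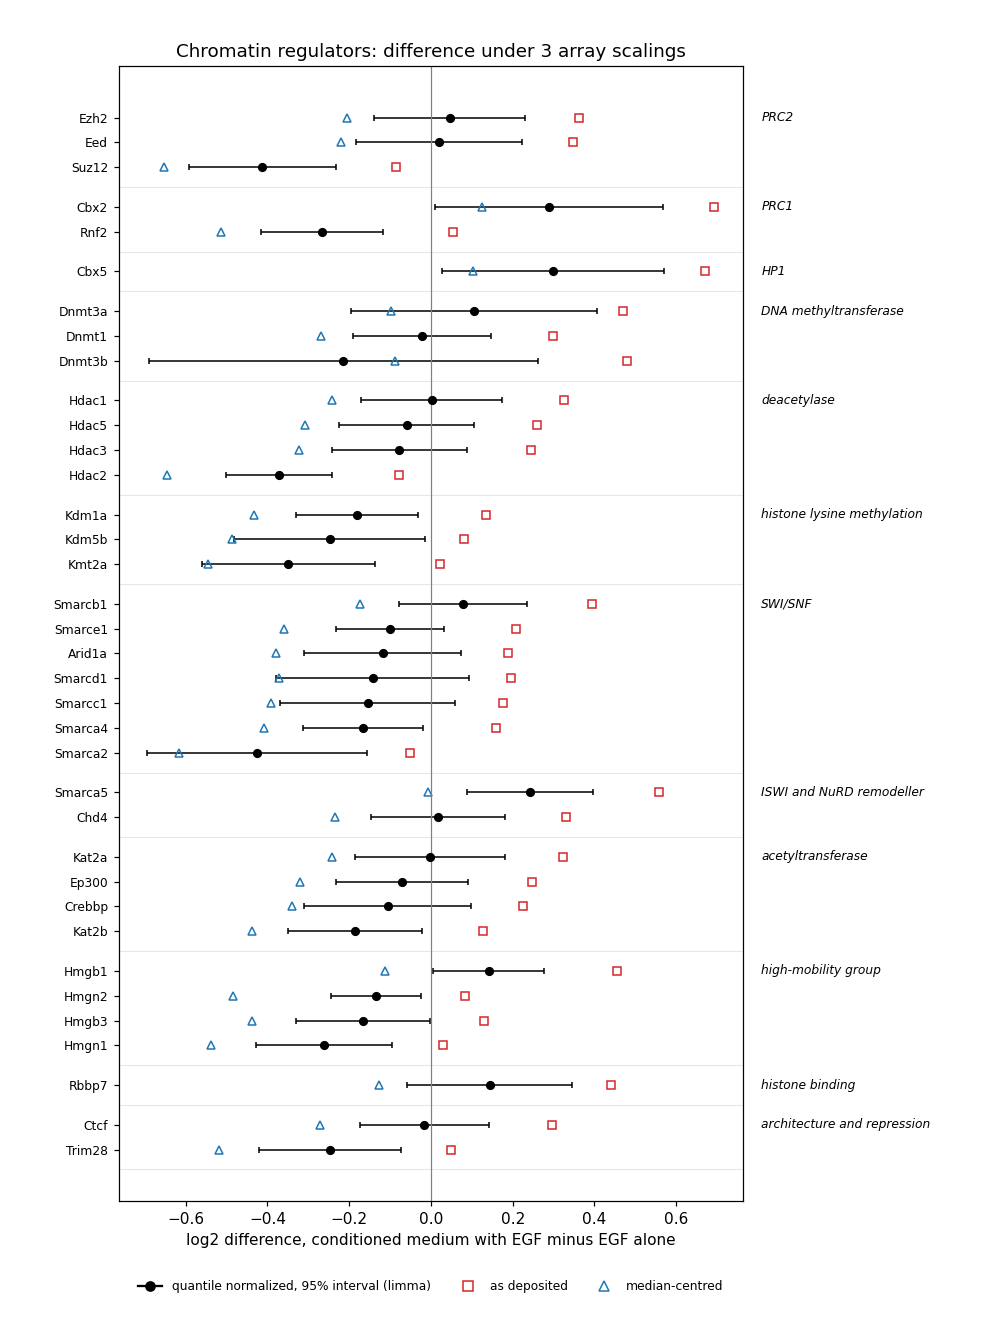
Difference of each of the 36 measured chromatin regulators, conditioned medium with EGF minus EGF alone (log2, horizontal axis), grouped by role. Black points are quantile normalized arrays with limma's 95% interval, red squares the deposited values and blue triangles median-centred arrays. The quantile normalized values lie between -0.43 and 0.30 log2, and most genes change side of 0 between scalings.

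The scaling of the arrays decided the sign of most of these differences. The deposited arrays had medians of 6.84 and 6.56 log2 with conditioned medium, against 6.03 and 6.25 log2 with EGF alone, and over all genes the median difference came to 0.40 log2 as deposited, -0.16 log2 with median-centred arrays and 0.00 log2 after quantile normalization. The median of the 36 members was 0.24, -0.33 and -0.10 log2 on those scales in the same order. Relative to the median of all genes it lay at -0.17, -0.17 and -0.11 log2. The deposited and median-centred values are equal by construction, because median-centring moves all deposited differences by the same constant. Between deposited and quantile normalized arrays, the dimmest member, Dnmt3b (5.63 log2), went from 0.48 to -0.21 log2. The brightest, Hmgn2 (13.69 log2), went from 0.08 to -0.13 log2. The part of brightness in the members' offset and calls was not tested. As deposited 33 of the 36 lay above 0, with median-centred arrays 34 lay below 0, and after quantile normalization 11 lay above and 25 below. Cbx2 and Cbx5 lay above 0 under all 3 scalings, Suz12, Hdac2 and Smarca2 below 0 under all 3, and the other 31 changed sign. A gene is therefore said to have risen or fallen only where limma gave an adjusted p under 0.05 in the same direction under all 3 scalings.

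By that rule 0 of the 36 members rose and 0 fell, and 0 passed in either direction at an unadjusted p under 0.05 on all 3 scales. Among all genes tested 9.12% rose and 1.78% fell. On the quantile normalized scale by itself, 1 member was higher and 7 were lower, where 16.5% and 14.6% of all genes were. As deposited 7 members were higher and 0 lower, beside 40.4% and 1.78% of all genes, and with median-centred arrays 0 were higher and 22 lower, beside 10.2% and 32.2%. At an unadjusted p under 0.05 the deposited values gave 0 lower and the median-centred ones 0 higher too. The values of both conditions did not overlap after quantile normalization in 24 members, 5 higher and 19 lower, against 33.6% of all genes higher and 32.6% lower.

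The same arrays differed strongly in proliferation and cell-type genes. Of 20 tested mitosis genes 19 rose and of 18 DNA replication genes 5 rose, while 10 of 14 photoreceptor genes fell and 7 of 14 retinal progenitor genes rose. Of markers of other cells, 12 of 14 mesenchymal, 8 of 13 microglia and 2 of 8 endothelial genes rose. Their summed levels after quantile normalization were 14.11 and 14.16 log2 with conditioned medium against 13.27 and 12.88 log2 with EGF alone for the mesenchymal list. Vim, which retinal progenitors and glia also express, held 78.4% to 85.3% of that sum, and without it the sums were 11.90 and 11.84 log2 against 10.51 and 10.44 log2. They were 10.65 and 10.69 against 9.82 and 9.94 log2 for the microglia list. The endothelial sums were 12.56 and 12.54 log2 against 12.14 and 12.17 log2, of which Kdr, a growth factor receptor gene, held 87.7% to 90.6%. Without Kdr they were 9.26 and 9.17 log2 against 9.12 and 8.76 log2. The 2 endothelial genes that rose were Flt1 (2.09 log2) and Esam (0.72 log2), while the other 6 tested did not pass under all 3 scalings. Flt1 had 6.07 and 5.75 log2 with conditioned medium and 3.86 and 3.78 log2 with EGF alone. The endothelial adhesion molecule Pecam1 was too dim to be tested. The eye-field factors Pax6 and Rax were bright in both conditions, with Pax6 at a mean of 12.65 log2 with conditioned medium and 12.81 log2 with EGF alone (-0.15 log2) and Rax at a difference of -0.24 log2. In the same list Six6 rose (0.68 log2), and Lhx2 differed by 0.54 log2 (limma adjusted p = 0.00887). The gap between the 3' and 5' actin control probe sets, which widens with degraded RNA, was 1.54 and 1.37 log2 with conditioned medium and 1.99 and 2.08 log2 with EGF alone. The part of these shifts in the values below was not tested.

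The E2F factors switch on genes of DNA replication and the cell cycle, and replication genes were among those that rose, so the promoters of the members were read for the E2F word. The windows run from 250 bases before to 50 bases after the annotated start of each gene in RefSeq (rat build GRCr8), and 37 of the 41 members had 39 windows. The letters searched were TTTCCCGC, TTTCGCGC, TTTGCCGC and TTTGGCGC on both strands. They were found in 8 of the 39 windows (20.5%), against 13 of 231 windows of other chromatin genes (5.63%), 3.86% of the 10774 windows of genes tested on the array and 2.14% of all 33469 windows. Of the 12 windows of other chromatin genes that rose or fell, 2 held the word (16.7%). Member windows were also rich in CpG, the dinucleotide that DNA methyltransferases modify, with a median of 30 per window against 26.5 for the other chromatin genes that rose or fell, 24 for all other chromatin genes, 20 for the genes tested and 7 for all windows. All 4 E2F words contain a CpG, and the part of CpG content in their higher share among members was not tested. Words for the factor NRF1 and for CCAAT were searched too. The NRF1 word was in 3 of the 39 member windows (7.69%), against 0.866% for other chromatin genes and 1.83% for genes tested. For CCAAT the shares were 46.2%, 45.9% and 37.5% in the same order. A higher share among members was thus not limited to the E2F word. A match is a description of the letters and not evidence of binding. The 30 bases around the E2F match are shown 5′ to 3′ on the gene's strand for the 8 members, Phf19 and Uhrf1. Phf19 and Uhrf1 were the only other chromatin genes that rose or fell with an E2F match. The stretches set the promoters of members beside those of genes that rose. Cbx3 had no value, and none of the other members shown rose or fell. Capitals mark the matched word.
Ezh2: gggctgctgcgTTTGGCGCtcggtccggtc
Suz12: cgacccctaatTTTCCCGCgaattcagttc
Cbx3: cggagccctgcTTTGGCGCgctttgagact
Dnmt1: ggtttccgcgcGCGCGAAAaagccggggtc
Kdm1a: gcggaggtgctcggTTTCGCGCggaccgtg
Smarcd1: gtcagcacgccTTTCCCGCtagtcgccccc
Smarce1: aaaaaaaaatcTTTGGCGCactaaaccttg
Arid1a: tccctccctccTTTCCCGCcccctccccct
Phf19: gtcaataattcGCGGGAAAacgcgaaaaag
Uhrf1: ccgctaagttcGCGGGAAActcgcgcggtc

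The Ezh2 stretch lies at chr4:77687156-77687185 (minus strand) with its word 9 bases past the start, and the Dnmt1 stretch at chr8:27762798-27762827 (minus strand) with its word 25 bases past the start. The Suz12 stretch lies at chr10:65464759-65464788 (plus strand) with its word 199 bases before the start, as far upstream as the word of Phf19 at chr3:38594035-38594064 (minus strand). The Uhrf1 stretch lies at chr9:1222982-1223011 (plus strand), in 1 of 3 annotated Uhrf1 windows, and that window holds a further match. Those of Cbx3, Kdm1a and Arid1a lie at chr4:81876435-81876464 (plus strand), chr5:154121726-154121755 (minus strand) and chr5:151265423-151265452 (minus strand), and those of Smarcd1 and Smarce1 at chr7:132708455-132708484 (plus strand) and chr10:84676300-84676329 (minus strand). Of the 8 members with the word, 7 were measured, and their differences ran from -0.41 log2 (Suz12) to 0.05 log2 (Ezh2) after quantile normalization, while Uhrf1 and Phf19 rose by 0.52 and 0.94 log2.

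**Figure D2:**
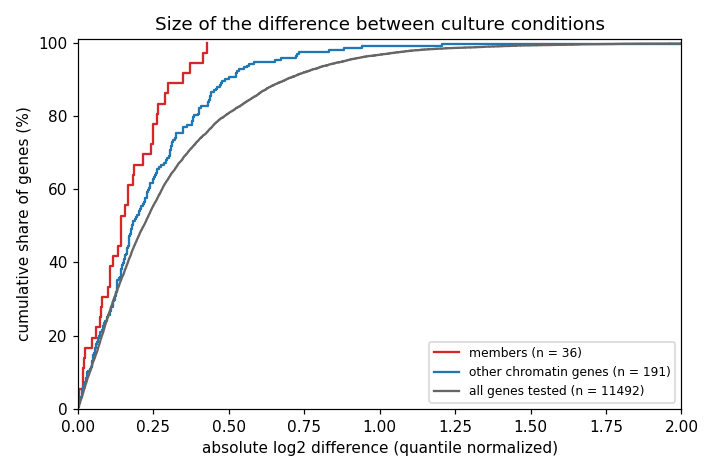
Cumulative share of genes (%, vertical axis) against the absolute log2 difference between conditions after quantile normalization (horizontal axis) for the 36 members, 191 other chromatin genes and all 11492 genes tested. The curve of the members reaches 100% before 0.5 log2, a size that 19.2% of all genes and 9.42% of the other chromatin genes exceed.

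None of the 3 core PRC2 genes rose or fell. Suz12, the zinc finger subunit the complex needs for stability, had 9.77 and 9.68 log2 with conditioned medium and 10.18 and 10.10 log2 with EGF alone after quantile normalization. Both conditioned-medium arrays lay below both EGF arrays (-0.41 ± 0.08 log2 SE, 1.33-fold lower, limma adjusted p = 0.00301), but the deposited difference was -0.09 log2 (adjusted p = 0.683), so Suz12 did not meet the rule. With any 1 array left out its adjusted p after quantile normalization was 0.0511 to 0.0731. Ezh2, the catalytic subunit, had 10.36 and 10.54 log2 with conditioned medium and 10.37 and 10.43 log2 with EGF alone, and these values overlapped. Its difference was 0.05 log2 with a 95% half-width of 0.18 log2, and a second probe set differed by 0.17 log2. A further Ezh2 probe set, under the limit for dim probe sets at 4.43 log2 on average, differed by -1.37 log2. The mean of all Ezh2 probe sets differed by -0.38 log2 (limma adjusted p = 0.0156), close to the -0.41 log2 of Suz12. Of the probe sets in that mean, only the dim one lay below 0. Eed, which binds the methyl mark and activates the complex, had 9.80 and 9.94 log2 with conditioned medium and 9.76 and 9.94 log2 with EGF alone (0.02 log2, half-width 0.20 log2), and its groups overlapped as well.

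A gap between genes of the same array does not depend on a shift that is equal for all its genes. It can still depend on the scaling where the shift varies with brightness. Relative to its mean with EGF alone, the gap between Ezh2 and Suz12 was 0.32 and 0.60 log2 with conditioned medium, against -0.07 and 0.07 log2 with EGF alone. The mean change was 0.46 log2 after quantile normalization and 0.45 log2 as deposited. These values rest on the brightest probe set of each gene, the pair was picked out after its values were seen, and no test of a gap was run here or for the pairs below. The gap between Ezh2 and its paralog Ezh1, the form that prevails in non-dividing cells, was 0.21 and 0.13 log2 with conditioned medium. It lay inside the spread of -0.28 and 0.28 log2 with EGF alone. The mean change of this gap was 0.17 log2 after quantile normalization and 0.10 log2 as deposited.

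In PRC1, the ubiquitin ligase Rnf2 had 10.97 and 11.00 log2 with conditioned medium and 11.22 and 11.28 log2 with EGF alone, without overlap (-0.27 ± 0.07 log2 SE, limma adjusted p = 0.0121). A second, bright Rnf2 probe set differed by only -0.03 log2, and as deposited the first differed by 0.05 log2, so the direction is not settled. Cbx2, which brings PRC1 to methylated histones, had 8.15 and 7.86 log2 with conditioned medium and 7.67 and 7.76 log2 with EGF alone. All conditioned-medium values were the higher ones. Its difference was 0.29 ± 0.13 log2 (SE, limma adjusted p = 0.109) after quantile normalization and 0.69 log2 as deposited (adjusted p = 0.0042). Cbx5, a heterochromatin protein that binds the methyl mark of silent chromatin, had 8.65 and 8.48 log2 with conditioned medium and 8.42 and 8.11 log2 with EGF alone. Its groups were apart by less than the replicates of either condition (0.30 ± 0.12 log2 SE, limma adjusted p = 0.0899, and 0.67 log2 as deposited with adjusted p = 0.003).

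The DNA methyltransferases showed no separation of the conditions in their better measured members. Dnmt1, which copies methylation after replication, had 10.32 and 10.42 log2 with conditioned medium and 10.40 and 10.38 log2 with EGF alone, and the ranges overlapped. Its difference of -0.02 log2 had a half-width of 0.17 log2. Dnmt3a, a de novo enzyme, had 8.69 and 8.93 log2 with conditioned medium and 8.91 and 8.50 log2 with EGF alone (0.11 log2, half-width 0.30 log2). A second Dnmt3a probe set differed by 0.10 log2. Dnmt3b, the de novo enzyme of the early embryo, was the dimmest member, with 5.56 and 5.47 log2 with conditioned medium and 5.80 and 5.65 log2 with EGF alone. Its interval was the widest (-0.21 log2, half-width 0.48 log2), and its deposited difference was 0.48 log2.

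Of the 4 deacetylases measured, Hdac2 was lower after quantile normalization and none rose or fell under all 3 scalings. Hdac2 had 12.04 and 12.04 log2 with conditioned medium and 12.39 and 12.43 log2 with EGF alone, which gave -0.37 ± 0.06 log2 (SE, limma adjusted p = 0.000778, the smallest of the members). As deposited the difference was -0.08 log2 (adjusted p = 0.666). Its close paralog Hdac1 had 10.07 and 10.17 log2 with conditioned medium and 10.14 and 10.11 log2 with EGF alone, overlapping, with a difference of 0.00 log2 and a half-width of 0.17 log2. The gap between Hdac1 and Hdac2 was 0.32 and 0.42 log2 with conditioned medium and 0.03 and -0.03 log2 with EGF alone, a mean change of 0.37 log2 (0.40 log2 as deposited). A second Hdac1 probe set, at 8.08 log2 on average, differed by 0.44 log2. Hdac3, the deacetylase of the nuclear corepressor complexes, and Hdac5, which shuttles between nucleus and cytoplasm, differed by -0.08 and -0.06 log2, with half-widths of 0.17 and 0.16 log2. Hdac5 had 10.50 and 10.49 log2 with conditioned medium and 10.61 and 10.50 log2 with EGF alone, and a dim probe set of it differed by 0.31 log2.

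**Figure D3:**
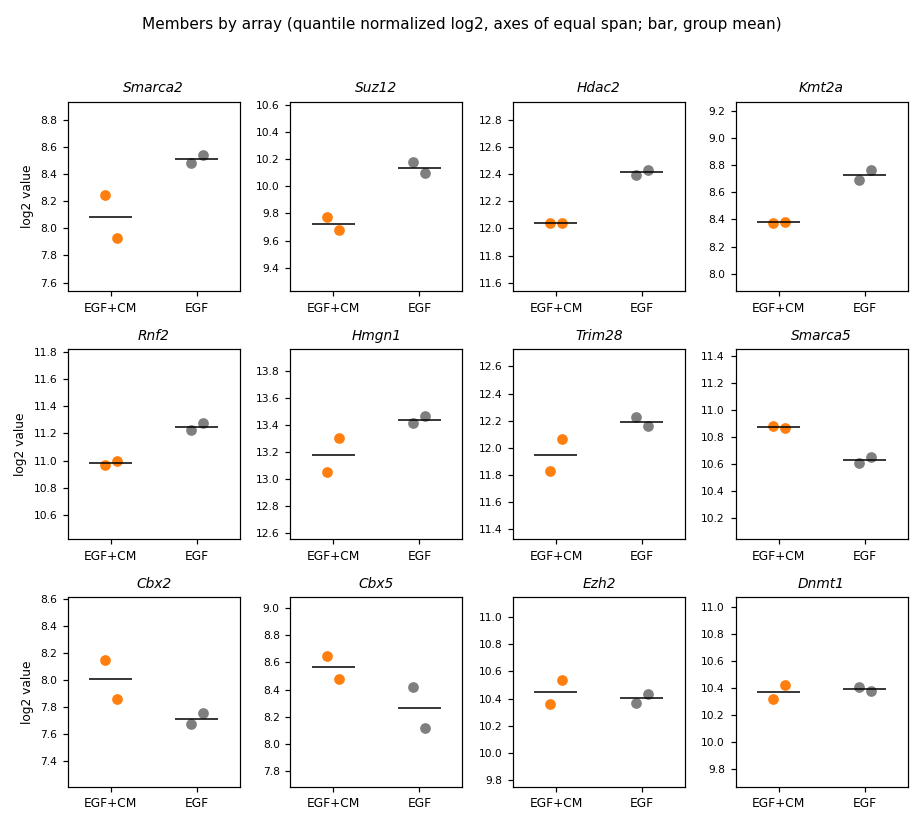
Quantile normalized log2 value of 12 members in each array, conditioned medium with EGF (orange, left) and EGF alone (grey, right), with the group mean as a bar and vertical axes of equal span. Each gene is read through its brightest probe set. Smarca2, Suz12, Hdac2, Kmt2a, Rnf2, Hmgn1 and Trim28 lie lower with conditioned medium in both replicates. Smarca5, Cbx2 and Cbx5 lie higher, while Ezh2 and Dnmt1 overlap.

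The enzymes of histone lysine methylation all had negative differences after quantile normalization and positive ones as deposited. Kmt2a, a methyltransferase that maintains active genes, had 8.38 and 8.38 log2 with conditioned medium and 8.69 and 8.77 log2 with EGF alone (-0.35 ± 0.10 log2 SE, limma adjusted p = 0.0185), and 0.02 log2 as deposited. Of its other probe sets the brightest differed by -0.56 log2, and the 2 below the limit for dim probe sets by 0.31 and -0.30 log2. Kdm1a, a demethylase of corepressor complexes, differed by -0.18 log2 (adjusted p = 0.0658) and Kdm5b, a demethylase that removes active marks, by -0.25 log2 (adjusted p = 0.102). Kdm5b had 9.46 and 9.44 log2 with conditioned medium and 9.54 and 9.86 log2 with EGF alone. Of its 5 probe sets, the 3 brightest gave -0.25, -0.20 and -0.15 log2. The 2 dimmer ones, at 5.83 and 5.65 log2 on average and above the limit for dim probe sets, gave 0.47 and 0.43 log2.

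The 7 SWI/SNF subunits ran from -0.43 to 0.08 log2. Smarca2, 1 of the 2 alternative ATPases, had 8.25 and 7.93 log2 with conditioned medium and 8.48 and 8.55 log2 with EGF alone, without overlap (-0.43 ± 0.12 log2 SE, limma adjusted p = 0.0218). As deposited it differed by -0.05 log2 (adjusted p = 0.834), and its other probe sets differed by -0.29 and, below the limit for dim probe sets, 0.09 log2. Smarca4, the other alternative ATPase, had 11.48 and 11.46 log2 with conditioned medium and 11.59 and 11.69 log2 with EGF alone (-0.17 log2, limma adjusted p = 0.0806). The further probe sets of Smarca4 differed by 0.21 and -0.07 log2. The gap between Smarca4 and Smarca2 was 0.11 and 0.41 log2 with conditioned medium against -0.02 and 0.02 log2 with EGF alone. The core and accessory subunits Smarcb1 (0.08 log2), Smarce1 (-0.10 log2), Arid1a (-0.12 log2), Smarcd1 (-0.14 log2) and Smarcc1 (-0.16 log2) each had an interval that contained 0. Arid1a, the DNA-binding subunit of the canonical complex, had 10.57 and 10.70 log2 with conditioned medium and 10.86 and 10.65 log2 with EGF alone. Of its 4 probe sets, a dimmer one at 6.19 log2 differed by -0.75 log2, and the others by -0.12 to 0.08 log2.

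The ISWI ATPase Smarca5, which spaces nucleosomes and serves replication, was the single member higher after quantile normalization. It had 10.88 and 10.86 log2 with conditioned medium and 10.61 and 10.65 log2 with EGF alone (0.24 ± 0.07 log2 SE, limma adjusted p = 0.0227), with a gap between conditions well beyond that between replicates. Its other probe sets differed by 0.13 and 0.22 log2 in the same direction. The first had 10.006 and 10.054 log2 with conditioned medium and 9.789 and 10.014 log2 with EGF alone, overlapping. The second had 9.86 and 9.81 log2 against 9.48 and 9.76 log2, without overlap. Smarca5 was no longer called higher with the mean of all probe sets, without an intensity trend or with any array left out. As deposited the difference of its brightest probe set was 0.56 log2 (adjusted p = 0.00376), and with median-centred arrays it was -0.01 log2. Chd4, the ATPase of the NuRD deacetylase complex, had 10.82 and 10.90 log2 with conditioned medium and 10.78 and 10.90 log2 with EGF alone, overlapping, with a difference of 0.02 log2 and a half-width of 0.16 log2. Its other probe sets differed by -0.03 and, for the dimmest, -0.32 log2.

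The 4 acetyltransferases had limma adjusted p-values of 0.0801 and above after quantile normalization. Ep300 and Crebbp, the paired coactivators of many transcription factors, differed by -0.07 and -0.11 log2. Crebbp had 9.74 and 9.65 log2 with conditioned medium and 9.70 and 9.91 log2 with EGF alone, overlapping, and a further bright probe set of it differed by -0.41 log2. Kat2a, the acetyltransferase of the SAGA complex, differed by 0.00 log2 with a half-width of 0.18 log2. Its paralog Kat2b had 10.22 and 10.28 log2 with conditioned medium and 10.42 and 10.45 log2 with EGF alone, without overlap (-0.19 ± 0.07 log2 SE, limma adjusted p = 0.0801), while a dimmer probe set differed by 0.23 log2. The gap between Kat2a and Kat2b was 0.18 and 0.19 log2 with conditioned medium and 0.01 and -0.01 log2 with EGF alone. The gap between Ep300 and Crebbp, at 0.00 and 0.07 log2 with conditioned medium, lay within the 0.12 and -0.12 log2 with EGF alone. That gap used the brightest Crebbp probe set. The further bright one had 9.26 and 9.44 log2 with conditioned medium and 9.66 and 9.87 log2 with EGF alone, without overlap, and would give another gap.

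Among the high-mobility group proteins, which bend DNA or loosen nucleosomes, Hmgn1 had 13.05 and 13.30 log2 with conditioned medium and 13.41 and 13.46 log2 with EGF alone (-0.26 ± 0.08 log2 SE, limma adjusted p = 0.0231), and 0.03 log2 as deposited. Hmgn2 (-0.13 log2) and Hmgb3 (-0.17 log2) lay lower and Hmgb1 (0.14 log2) higher in both conditioned-medium arrays, with adjusted p-values of 0.0648, 0.116 and 0.108. The gap between Hmgn2 and Hmgn1 was 0.26 and -0.01 log2 with conditioned medium and 0.01 and -0.01 log2 with EGF alone, overlapping. That between Hmgb1 and Hmgb3, also picked out after its values were seen, was 0.22 and 0.40 log2 with conditioned medium and 0.09 and -0.09 log2 with EGF alone.

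Rbbp7, a histone-binding subunit that PRC2, NuRD and deacetylase complexes share, had 12.36 and 12.05 log2 with conditioned medium and 12.01 and 12.11 log2 with EGF alone, overlapping (0.14 log2, half-width 0.20 log2). Ctcf, the insulator protein that shapes chromatin loops, differed by -0.02 log2 with a half-width of 0.16 log2. Trim28, a corepressor of zinc finger proteins that silence transposons, had 11.83 and 12.06 log2 with conditioned medium and 12.22 and 12.16 log2 with EGF alone (-0.25 ± 0.08 log2 SE, limma adjusted p = 0.0353), and 0.05 log2 as deposited.

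**Figure D4:**
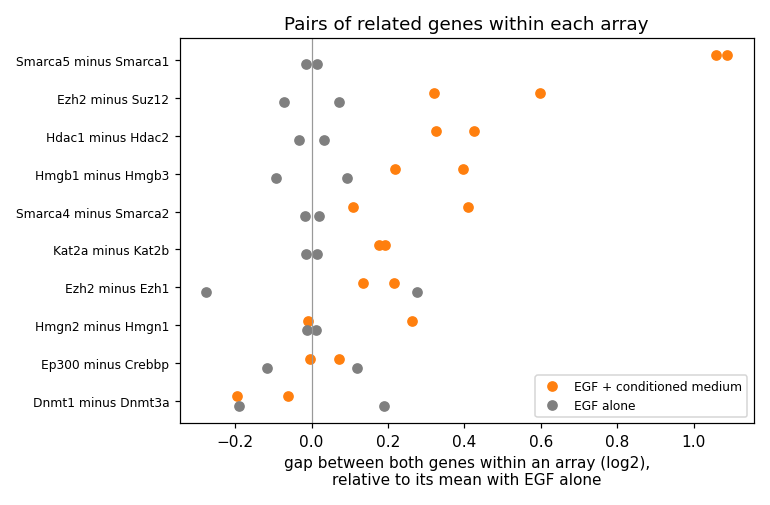
Gap between the log2 values of 2 related genes within each array, relative to its mean with EGF alone (horizontal axis), for 10 pairs after quantile normalization. Orange points are conditioned medium with EGF and grey points EGF alone, each gene read through its brightest probe set. The gaps between Smarca5 and Smarca1, Ezh2 and Suz12, and Hdac1 and Hdac2 lie apart between conditions, those between Ep300 and Crebbp and between Dnmt1 and Dnmt3a do not. The pairs of Smarca5 and Smarca1, Ezh2 and Suz12, and Hmgb1 and Hmgb3 were picked out after their values were seen.

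Genes around this machinery were read from 11 lists of other chromatin genes, 220 in all, of which 191 were tested. Of these 8 rose and 2 fell, beside 9.12% and 1.78% of all genes tested, and the other 181 did not pass under all 3 scalings. On quantile normalized arrays taken by themselves, 26 were higher and 35 lower, beside 16.5% and 14.6% of all genes tested. The median difference of the 191 was -0.07 log2. It lay at -0.12 log2 relative to the median of all genes as deposited and with median-centred arrays, scales that differ only by a constant.

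Gadd45b, a stress-induced protein linked to DNA demethylation, rose most. It had 8.74 and 8.90 log2 with conditioned medium and 6.67 and 6.53 log2 with EGF alone, a 4.65-fold rise (2.22 ± 0.12 log2 SE, limma adjusted p = 8.00e-07). Uhrf1, which guides Dnmt1 to freshly replicated DNA, rose from the same list of 11 tested genes of DNA methylation, with 10.40 and 10.45 log2 with conditioned medium against 9.86 and 9.94 log2 with EGF alone (0.52 ± 0.08 log2 SE, 1.44-fold). Uhrf1 no longer passed without an intensity trend, with the replicate number as a block, without EGF replicate 1, without EGF replicate 2 or without conditioned-medium replicate 2. The 3 Tet dioxygenases, which oxidise methylcytosine and were picked out after their values were seen, differed by -0.48, -0.45 and -0.46 log2 for Tet1, Tet2 and Tet3 (limma adjusted p = 0.00685, 0.00381 and 0.00108), but by only -0.11, -0.11 and -0.13 log2 as deposited.

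Of 27 other Polycomb genes, Phf19, an accessory subunit that recruits PRC2, rose. It had 7.87 and 7.96 log2 with conditioned medium and 7.01 and 6.94 log2 with EGF alone (0.94 ± 0.12 log2 SE, 1.92-fold, limma adjusted p = 0.000225). It passed in all 9 alternative analyses. Of 16 histone chaperone and nucleosome assembly genes 2 rose, Asf1b (0.73 ± 0.13 log2 SE), a chaperone that hands over new histones, and Hjurp (0.67 ± 0.10 log2 SE), which loads the centromeric histone. Of 17 cohesin and condensin genes Ncapg2, a condensin subunit of dividing cells, rose 2.31-fold (1.21 ± 0.15 log2 SE). Asf1b no longer passed without conditioned-medium replicate 1 or EGF replicate 2. These genes moved beside the mitosis list, in which 19 of 20 tested genes rose, and the part of proliferation in their rise was not tested.

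**Figure D5:**
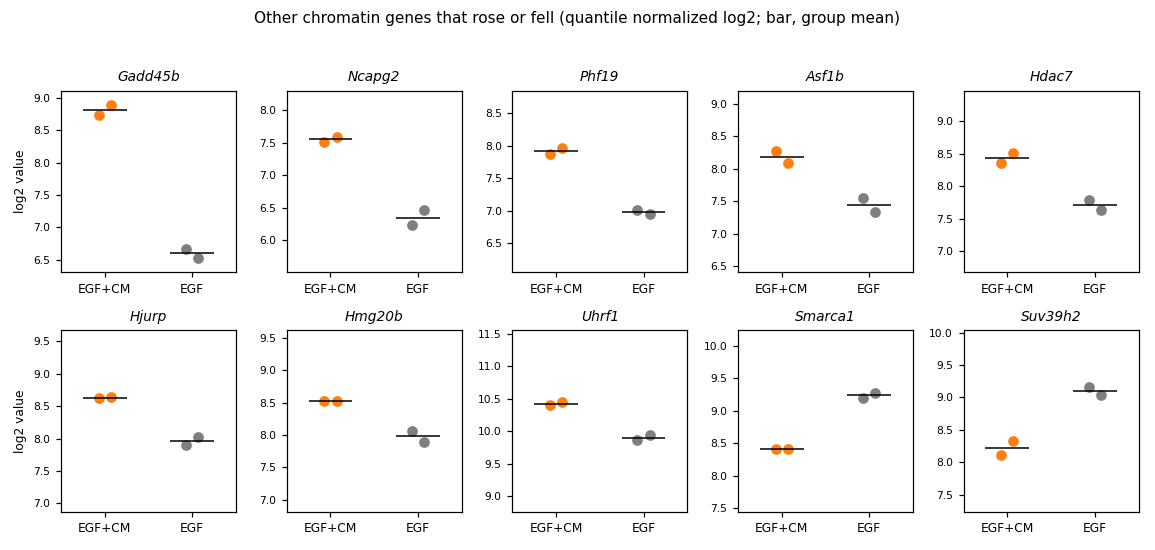
Quantile normalized log2 value in each array of the 10 other chromatin genes that rose or fell under all 3 scalings, conditioned medium with EGF (orange, left) and EGF alone (grey, right), bars showing group means. Gadd45b, Ncapg2 and Phf19 have the highest differences (2.22, 1.21 and 0.94 log2), and Smarca1 and Suv39h2 lie lower with conditioned medium.

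The 2 genes that fell were a remodeller and a methyltransferase. Smarca1, the ISWI ATPase that prevails in differentiated neurons, had 8.40 and 8.41 log2 with conditioned medium and 9.20 and 9.28 log2 with EGF alone (-0.83 ± 0.09 log2 SE, 1.78-fold lower, limma adjusted p = 8.08e-05). The gap between Smarca5 and Smarca1 was 1.09 and 1.06 log2 with conditioned medium against 0.02 and -0.02 log2 with EGF alone, and the change was 1.04 log2 as deposited. This pair was picked out after its values were seen. Suv39h2, a methyltransferase of constitutive heterochromatin, had 8.10 and 8.32 log2 with conditioned medium and 9.16 and 9.03 log2 with EGF alone (-0.88 ± 0.11 log2 SE, 1.84-fold lower). Both falls lost the call with the replicate as a block, without an intensity trend and whichever of the 4 arrays was dropped. Beside them 10 of 14 photoreceptor genes fell, and their part was not tested.

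Of 22 other deacetylases and corepressors Hdac7 rose (0.72 ± 0.11 log2 SE, 1.65-fold, limma adjusted p = 0.000758), a deacetylase best known from endothelial cells and lymphocytes, and it was lost without conditioned-medium replicate 2. Hmg20b, a subunit of the Kdm1a corepressor complex, rose as well (0.55 ± 0.11 log2 SE). It was lost without an intensity trend and without conditioned-medium replicate 1, conditioned-medium replicate 2 or EGF replicate 2.

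None of 19 other SWI/SNF subunits rose or fell under all 3 scalings, while 2 were higher and 7 lower after quantile normalization (limma), beside 16.5% and 14.6% of all genes, and 0 of them were lower as deposited. At an unadjusted p under 0.05, 0 of the 19 passed in either direction on all 3 scales and 0 were lower as deposited. Ss18 rose with the mean of all probe sets, and Dpf2 rose without EGF replicate 1. During neuronal differentiation the complex exchanges subunits, and the following genes were picked out for that background after their values were seen. The neuronal subunits Actl6b, Dpf1 and Dpf3 differed by -0.57, -0.33 and -0.06 log2 after quantile normalization (limma adjusted p = 0.00487, 0.0488 and 0.774), and by -0.16, 0.10 and 0.41 log2 as deposited. The progenitor subunits Actl6a, Dpf2 and Ss18 differed by 0.25, 0.49 and 0.40 log2 (limma adjusted p = 0.125, 0.00267 and 0.00116), and by 0.56, 0.80 and 0.72 log2 as deposited. These genes do not form matched pairs throughout, and Phf10 and Ss18l1 of the same list were not among the 19 tested. Actl6b had 7.64 and 7.42 log2 with conditioned medium and 8.15 and 8.04 log2 with EGF alone. Dpf2 had 10.64 and 10.66 log2 with conditioned medium and 10.30 and 10.02 log2 with EGF alone.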

How the data were processed

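Total RNA of 4 samples was measured on Affymetrix arrays, 2 grown with conditioned medium and EGF and 2 with EGF alone, grouped by the treatment label. The log2 values deposited by the authors are RMA summaries of the probes made in GenePattern, per the series description. Which RMA version and normalization they used is not given in the sources used here. Array medians of the deposited log2 values were unequal, so arrays were quantile normalized over all 31099 probe sets, and deposited and median-centred values were alternatives.

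Of the probe sets, 20832 had 1 gene symbol and were used, 436 had several and 9831 none. Symbols matched by gene identifier to RefSeq (GRCr8) for 20764 probe sets, and 0 needed updating. Each gene took its brightest probe set by the mean of the deposited values. A gene whose probe set fell in the lowest 30% by mean value, below 4.77 log2, was not tested.

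The comparison was fitted with limma 3.58.1 in R 4.3.3 (lmFit and trended eBayes, two-sided, p-values adjusted by Benjamini-Hochberg over 11492 genes, threshold 0.05), without a block. On the deposited scale limma's prior had infinite degrees of freedom, so its p-values rest on the trend alone (10.5 degrees with median-centred and 8.71 with quantile normalized arrays). Half-widths are limma's 95% intervals. The procedure was tested on simulated data. It recovered 66 of 100 changes of 0.5 log2 and 98 of 100 changes of 1 log2, with 6 false calls in each case. A read depth does not exist for arrays, and the number of arrays limits the precision.

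Deviations of same-numbered arrays correlated at -0.03 after quantile normalization and -0.12 as deposited over 2 pairs, and no label states that a number marks a shared pool. The members and lists were chosen with earlier results of these data known. Array values were named for members that rose or fell, the 3 largest differences otherwise, members whose probe sets disagreed in sign by over 0.3 log2, up to 4 genes per other list and fixed paralog pairs. Further members and pairs were added after their values were seen. Alternatives were the scaling, the dim filter, the mean of all probe sets, no intensity trend, the block and leaving out each array.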

Additional observations from a re-analysis of the deposited data

How the results depend on the processing

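That 0 members rose and 0 fell held in all 9 alternatives that were run. The rule needs a call on every scale, with 0 members lower as deposited and 0 higher with median-centred arrays. Leaving out an array also lowers the precision. These alternatives could therefore hardly have overturned the counts of 0. On quantile normalized arrays, the members higher numbered 1 and those lower 7. These counts were 7 and 0 with deposited values, 0 and 22 with median-centred arrays, 0 and 5 with the mean of all probe sets, and 0 and 3 without an intensity trend. With 1 array left out, 0 were higher and 1 to 3 lower. Over all genes, 1891 were higher and 1673 lower, against 4643 and 205 with deposited values and 1176 and 3704 with median-centred arrays. With 1 array left out they were 557 to 1061 higher and 487 to 736 lower. The 8 other chromatin genes that rose were 5 to 9 with 1 array left out, and the 2 that fell were 0 with any array left out, with the replicate block and without an intensity trend. With the replicate as a block the members were again 1 higher and 7 lower, with 1823 higher and 1570 lower genes in all, and the block changed no count but that of the 2 falls by over 1.5 times. Of 395 differences of single members under alternatives, 327 kept their side of the threshold, 40 lost it, 22 gained it and 6 reversed. The reversed ones were Hmgn1 (0.029 log2), Kmt2a (0.021), Rnf2 (0.053) and Trim28 (0.050) with deposited values, Smarca5 (-0.0082) with median-centred arrays and Ezh2 (-0.384, adjusted p = 0.0156) with the mean of all probe sets, which takes in its dimmest probe set. A further 45 changed sign without being called on either side. Probe sets of low level, such as that of Dnmt3b, can compress a change, which was not tested here. Where a call changed and no reason is given, the cause was not tested.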
